A study of Mus musculus with 14 samples.

Results

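The liver breaks down most amino acids that are not used to make protein, and the enzymes that do so were read here in mice fed a Western diet with or without erythrodiol, a triterpene of the olive. The 46 enzymes were found by their gene symbol in the deposited gene table, where each occurs once among 17552 genes, and were sorted into 10 pathways. The livers came from male Apoe-deficient mice of C57BL/6 strain, which lack apolipoprotein E and have high plasma cholesterol. All mice of both groups shared this genotype and a purified Western diet with cholesterol and palm oil, and the erythrodiol group received 10 mg/kg of the compound in that diet. Each of the 7 libraries of a group was made from RNA pooled from a few animals. The labels give an age of 8 weeks and 8 weeks of feeding, whereas the study's methods give a longer feeding period. Polyadenylated RNA was sequenced, and for each gene the authors deposited 1 expected count a group, in which its 7 libraries are added up. No gene thus had a value per library, no test between the diets could be made, and every interval below covers counting error only.

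The catabolism of an amino acid includes removal of its nitrogen, for example by an aminotransferase, a deaminase or a lyase, at a first or later step. The carbon skeleton is oxidised to compounds that enter gluconeogenesis, ketogenesis or the citric acid cycle. Nitrogen leaves the liver as urea, and one-carbon units from glycine, serine and methionine feed methylation and nucleotide synthesis. Several of these enzymes, such as tryptophan dioxygenase and tyrosine aminotransferase, are known in liver for their response to glucocorticoids, glucagon and dietary protein.

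Library depth was uneven in the control group. Control libraries held between 34856340 and 55244294 clean reads and erythrodiol libraries between 47669656 and 48058606. The share of reads mapped to genes ranged from 64.3% to 81.4% in the control and from 73.0% to 76.1% in the erythrodiol group. The expected counts summed to 122889032 in the control and 124686047 with erythrodiol, and Apoe itself held 9403 counts in the control sum and 8293 in the erythrodiol sum. Hepatocyte markers dominated, with Alb at 9898794 counts in the control and 9665610 with erythrodiol. All 6 markers of Kupffer cells, the resident macrophages of liver, were lower with erythrodiol by a log2 ratio of 0.322 or more in size, with a median of -0.67, and their summed level was 423 in the control and 261 with erythrodiol. Of the 5 markers of bile duct cells, 3 were lower by as much, and their summed level was 77.1 and 51.3. These values are scaled by group totals, and 8.89% of the 13291 genes compared below were lower by as much on that scale. With the adjustment for gene length explained below, all 5 bile duct markers were lower by as much, against 13.5% of those genes. In bulk RNA, fewer cells of a type and less RNA per cell cannot be told apart.

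Differences are given as the log2 ratio of erythrodiol to control after each group was divided by its total count. Over the 13291 genes that reached 100 counts when the groups were added, the median log2 ratio was 0.16. It went with gene length, from -0.18 in the shortest of 10 equal classes of genes, up to 1211 bases, to 0.33 in the longest class, from 6116 bases. Each enzyme was therefore also set against the median of the 500 genes nearest to it in length, and this difference is called the length-adjusted log2 ratio. Levels are expected counts per kb of gene length and per 1e6 counts of the group.

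All 46 enzymes had at least 100 counts, from 1164 to 483680 in the groups together. They took 1.65% of all counts in the control and 1.62% with erythrodiol. Their median log2 ratio was 0.11, below the 0.16 of all genes, and their length-adjusted median was 0.0084, against -0.0002 for all genes. With group totals, 31 enzymes lay above a ratio of 1 and 15 below, and 25 and 21 when adjusted for length. The side on which an enzyme near 1 lies depends on the scaling, and 14 of the 46 change sides when the median of all genes is set to 0. As a list the enzymes stayed near the centre of all genes, and single enzymes lay on either side of it. Values by pathway are given below, and differences between pathways were not tested.

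A log2 ratio of at least 0.322 in size, which is a limit on size and not a test, was used to single out enzymes. With group totals 6 enzymes were past this limit and higher with erythrodiol, which is 13.0% of the 46, where 24.4% of all genes were. Lower by as much were 3 enzymes, or 6.52%, against 8.89% of all genes. In the length-adjusted values 1 enzyme was higher, or 2.17% against 6.10% of all genes, and 4 were lower, or 8.70% against 13.5%. The split of higher to lower enzymes thus turned from 6 and 3 to 1 and 4. With the median of all genes set to 0 or with TMM factors it was 1 and 7, or 2.17% and 15.2% of the enzymes. Of all genes, 6.31% were higher and 16.6% lower with the former, and 6.65% and 16.3% with the latter. With totals that leave out the 100 genes of highest counts it was 2 and 7, or 4.35% and 15.2%, against 10.5% and 13.6% of all genes. None of the 46 reached 2-fold on either scale, where 0.218% of all genes were higher and 0.549% lower by group totals, and 0.158% and 0.474% when adjusted for length. The shares of enzymes past the limit were below those of all genes in both directions with group totals and when adjusted for length, and the share of lower enzymes was above that of all genes with totals that leave out the 100 highest genes. The interquartile range of the log2 ratio was -0.03 to 0.26 in the enzymes and -0.04 to 0.32 in all genes.

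**Figure D1:**
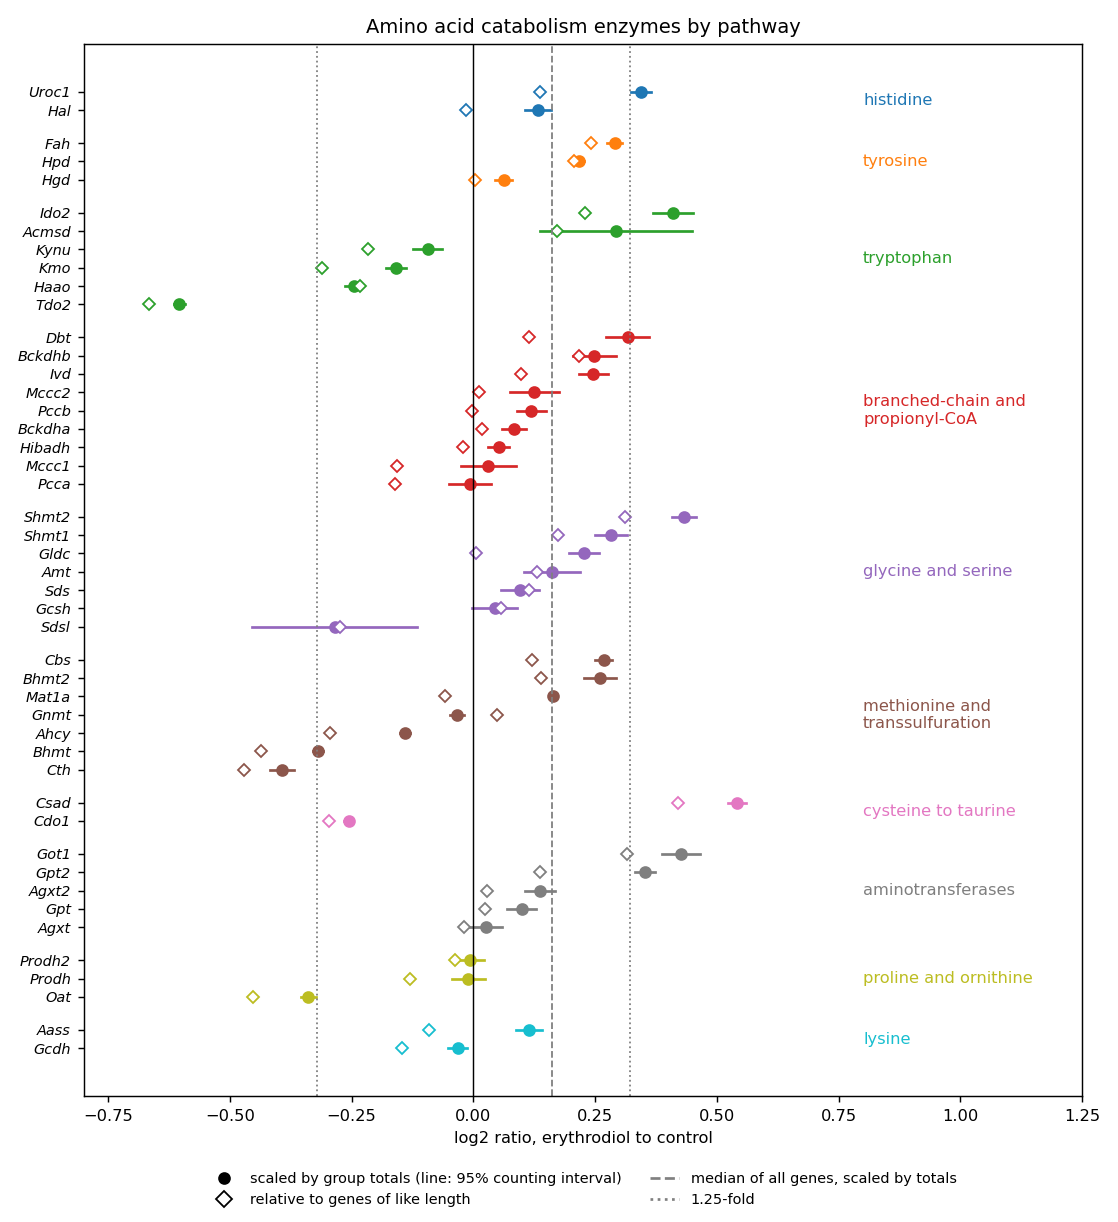
Log2 ratio of erythrodiol to control (horizontal axis) of each of the 46 enzymes, grouped by pathway. Filled circles are scaled by group totals with the 95% counting interval as a line, open diamonds are relative to genes of like length, dotted lines mark the limit of 0.322 and the dashed line the median of all genes at 0.16. Tdo2 stands lowest at -0.60 and Csad highest at 0.54 on the scale of totals.

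Tryptophan catabolism had the widest spread of all pathways. Tdo2, tryptophan 2,3-dioxygenase, opens the indole ring in the first step of the kynurenine pathway and is the main such enzyme of liver. It is gene 56720, on chromosome 3 of GRCm38 from 81958412 to 81975728. It held 166714 counts in the control sum and 111317 in the erythrodiol sum, and its level was 824 and 542. The ratio was 0.658 (counting interval 0.653 to 0.663), a log2 ratio of -0.60 and a length-adjusted one of -0.67. This was the lowest value of the 46 enzymes on both scales, and Tdo2 went from rank 2 to rank 6 in the order of levels.

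Ido2, indoleamine 2,3-dioxygenase 2, can carry out the same first step and lay on the other side, with 8201 counts in the control and 11058 with erythrodiol. Its log2 ratio was 0.41, and its length-adjusted one was 0.23, short of the limit. Tdo2 had 38.9 times the level of Ido2 in the control and 19.3 times with erythrodiol, so that the ratio of the 2 dioxygenases differed between the diets while Tdo2 stayed far more abundant.

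The 3 enzymes of the 46 that act next in the pathway, after the formamidase Afmid, were lower with erythrodiol on the scale of totals and within the limit. Kmo, kynurenine 3-monooxygenase, an enzyme of the outer mitochondrial membrane, held 39204 and 35647 counts, with a log2 ratio of -0.16 and a length-adjusted one of -0.31, just short of the limit. Kynu, kynureninase, which cleaves the kynurenine side chain, had a log2 ratio of -0.09, and Haao, 3-hydroxyanthranilate dioxygenase, which leads towards NAD synthesis, one of -0.25. Acmsd, which diverts the pathway from NAD synthesis to full oxidation, had the lowest level of all 46 enzymes, 2.17 in the control and 2.66 with erythrodiol, and its log2 ratio of 0.29 had a counting interval of 0.14 to 0.45. The summed level of the 6 enzymes was 1347 in the control and 1008 with erythrodiol, and most of that difference was Tdo2. Of the 5 other genes of the pathway, Kyat1, a kynurenine aminotransferase, was higher on both scales, with a log2 ratio of 0.45 and a length-adjusted one of 0.33. Afmid, the formamidase between Tdo2 and Kmo, was higher on the scale of totals alone, at 0.39.

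The bases before the start of Tdo2 are shown since it is the enzyme furthest below its length class. The run covers the 150 bases before the RefSeq start, chr3:81975729-81975878 on the minus strand of GRCm38.p6, written 5′ to 3′, and capitals mark matches on either strand to the motifs named further on, here ATTGG, which is CCAAT on the other strand, and TGACCT, which is AGGTCA on the other strand.
Tdo2: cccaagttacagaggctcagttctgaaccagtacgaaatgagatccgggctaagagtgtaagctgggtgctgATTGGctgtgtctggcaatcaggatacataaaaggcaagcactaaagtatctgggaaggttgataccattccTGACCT

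The steps from cysteine to taurine held the enzyme of highest ratio and the enzyme of highest level. Csad, cysteine sulfinic acid decarboxylase, makes hypotaurine, the precursor of the taurine that conjugates bile acids in mice. It is gene 246277, on chromosome 15 of GRCm38 from 102176997 to 102205052. Its counts were 38203 in the control sum and 56406 in the erythrodiol sum. The ratio was 1.46 (counting interval 1.44 to 1.47), a log2 ratio of 0.54 and a length-adjusted one of 0.42. It was the single enzyme past the limit and higher on both scales.

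Cdo1, cysteine dioxygenase, acts just before Csad and oxidises cysteine to cysteine sulfinic acid. It had the highest level of all 46 enzymes in both groups, 1117 in the control and 936 with erythrodiol, from 210055 and 178469 counts. Its log2 ratio was -0.26 and its length-adjusted one -0.30, so that the neighbouring steps lay on opposite sides of a ratio of 1. None of the 6 other genes of sulfur amino acid oxidation on the list passed the limit on either scale, and their log2 ratios went from -0.14 to 0.17.

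**Figure D2:**
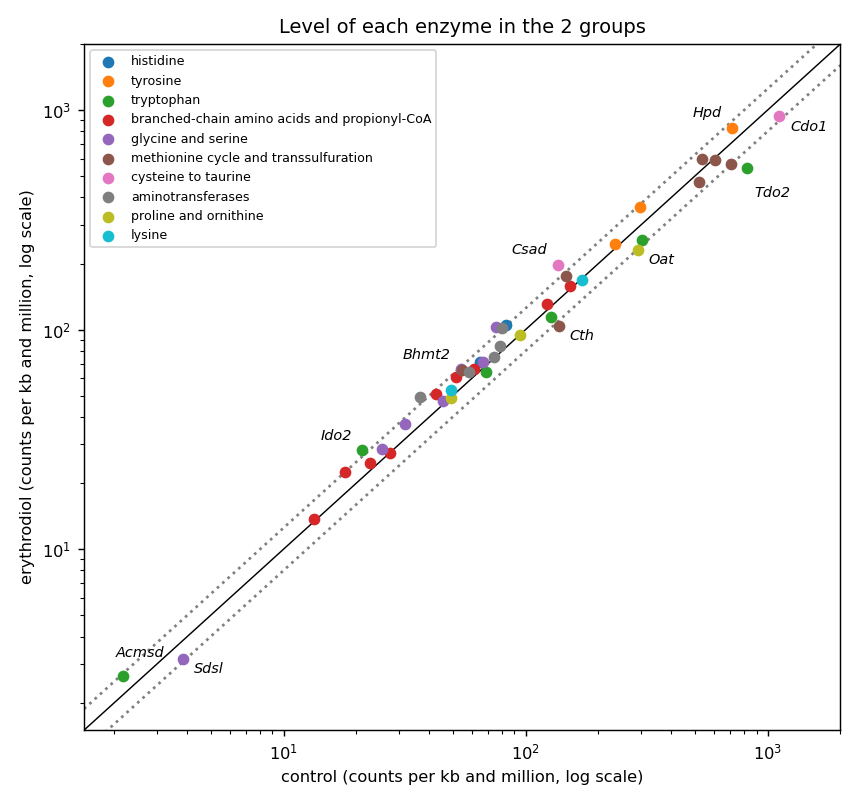
Level of each enzyme, in expected counts per kb and 1e6 counts on log axes, in the control (horizontal) and erythrodiol (vertical) group, with colours for pathways, the line of equal levels and dotted lines at the limit of 0.322. Levels run from 2.17 for Acmsd to 1117 for Cdo1 in the control, and Tdo2, Cth and Oat lie below the lower dotted line while Csad, Shmt2, Got1, Ido2, Gpt2 and Uroc1 lie above the upper one.

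Csad also stood out in the assembled transcripts. Its new coding isoforms numbered 8, and no other of the 46 enzymes had more than 2. Among all genes of the table, 203 had at least 8. Of the 8 Csad isoforms, 5 began at the RefSeq start of the gene and 3 began 1272 bases further along. All of their splice junctions but 1 are in the GENCODE vM21 annotation, so that the isoforms were new combinations of annotated junctions, apart from isoform 7. RefSeq gives Csad a second start further inside the gene, where none of the new isoforms began. The isoforms were assembled from all 14 libraries together and give no comparison between the diets. Counts were given by gene and not by isoform. Those of Csad, 38202.81 in the control and 56405.81 with erythrodiol, were not whole numbers.

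**Figure D3:**
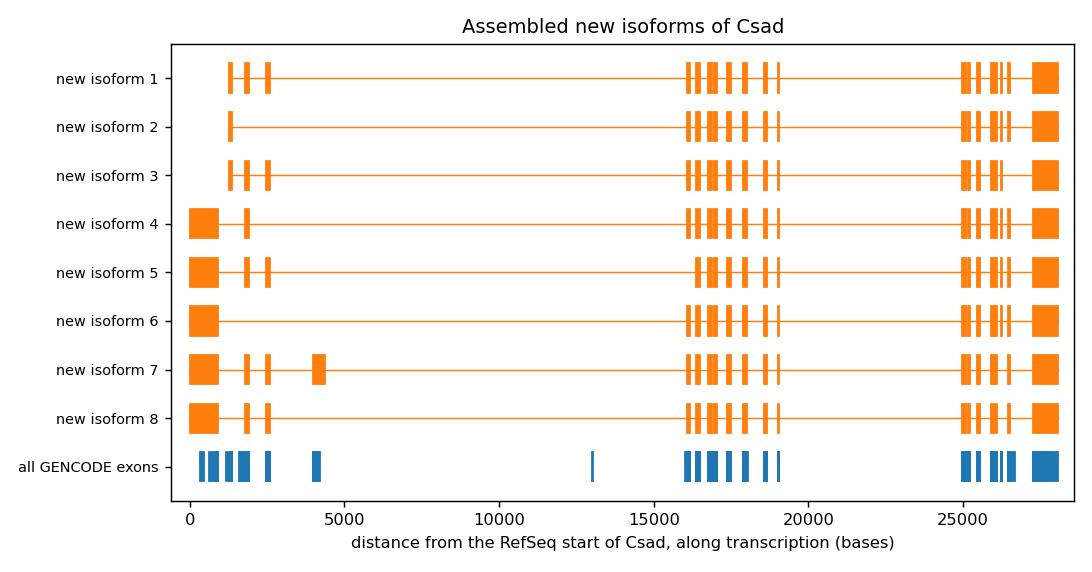
Exons (boxes) of the 8 assembled new isoforms of Csad and of all GENCODE vM21 transcripts of the gene together, by distance in bases from the RefSeq start along the direction of transcription. Isoforms 1 to 3 begin 1272 bases after the start, and the others at the start.

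The bases before both RefSeq starts of Csad are shown because the isoforms used one of them. They are the 150 bases at chr15:102205053-102205202 for the outer start and chr15:102189044-102189193 for the inner start, both on the minus strand of GRCm38.p6 and written 5′ to 3′, with capitals for matches to the motifs. The outer one holds CCAAT and TGACGT and the inner one none of the motifs searched.
Csad outer start: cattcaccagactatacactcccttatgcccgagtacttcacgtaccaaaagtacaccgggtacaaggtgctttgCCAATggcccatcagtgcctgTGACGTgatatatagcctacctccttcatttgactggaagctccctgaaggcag
Csad inner start: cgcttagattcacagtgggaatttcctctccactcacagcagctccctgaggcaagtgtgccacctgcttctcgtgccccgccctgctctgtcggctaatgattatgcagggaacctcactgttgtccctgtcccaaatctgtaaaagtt

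In the methionine cycle and transsulfuration, 3 of the 7 enzymes lay above a ratio of 1 and 4 below. Past the limit and lower in the length-adjusted values were 2, or 28.6%, against 13.5% of all genes. On the scale of totals 1 was, or 14.3% against 8.89%. Cth, cystathionine gamma-lyase, which releases cysteine from cystathionine, held 30527 counts in the control and 23579 with erythrodiol. Its ratio was 0.761 (counting interval 0.748 to 0.774), with a log2 ratio of -0.39 and a length-adjusted one of -0.47. Cbs, cystathionine beta-synthase, makes the substrate of Cth and lay on the other side, at 45145 and 55126 counts and a log2 ratio of 0.27, which was 0.12 when adjusted for length. The 2 successive enzymes of transsulfuration thus differed in direction on both scales.

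Bhmt, betaine-homocysteine methyltransferase, which remethylates homocysteine with betaine, held 180728 and 146949 counts. Its level was 707 and 566. The log2 ratio of -0.319 lay just inside the limit, and the length-adjusted one was -0.44. Bhmt2, its neighbour on chromosome 13, which uses S-methylmethionine, held 13997 and 17010 counts, with a log2 ratio of 0.26 and a length-adjusted one of 0.14. The log2 ratio of Bhmt was lower than that of Bhmt2 by 0.58, and Bhmt had 13.0 times the level of Bhmt2 in the control and 8.68 times with erythrodiol. The counts of both genes were whole numbers in both groups.

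The 150 bases before the starts of this pair are shown because the neighbours lay on opposite sides of a ratio of 1. They are chr13:93637759-93637908 for Bhmt and chr13:93674303-93674452 for Bhmt2, both on the minus strand of GRCm38.p6 and written 5′ to 3′, with capitals for matches to the motifs. In Bhmt the capitals are AGGTCA at 2 places and ATTGG between them, and Bhmt2 had none of the motifs in this window.
Bhmt: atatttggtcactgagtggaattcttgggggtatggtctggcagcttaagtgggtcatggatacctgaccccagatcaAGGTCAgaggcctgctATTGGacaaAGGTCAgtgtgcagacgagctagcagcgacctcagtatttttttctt
Bhmt2: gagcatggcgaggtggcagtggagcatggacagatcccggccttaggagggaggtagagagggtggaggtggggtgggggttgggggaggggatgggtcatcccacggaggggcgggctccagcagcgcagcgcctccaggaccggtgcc

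Mat1a, Gnmt and Ahcy, the remaining enzymes of the methionine cycle among the 46, had control levels from 519 to 606 and were within the limit on both scales. Mat1a, the methionine adenosyltransferase of adult liver, held 226410 and 257270 counts, with a log2 ratio of 0.16 and a length-adjusted one of -0.06, so that its side depended on the scale. Gnmt, glycine N-methyltransferase, which uses up S-adenosylmethionine, had 77661 and 76955 counts, a level of 606 in the control and 592 with erythrodiol, and a log2 ratio of -0.03. Ahcy, which hydrolyses S-adenosylhomocysteine, had a log2 ratio of -0.14 and a length-adjusted one of -0.30. Of the other genes of the pathway, Adk, adenosine kinase, which removes the adenosine that Ahcy makes, was lower, at -0.28 and at -0.37 when adjusted for length. Mtr, methionine synthase, and Mtrr, which reactivates it, had control levels of 1.51 and 1.62 and were higher on the scale of totals, at 0.36 and 0.49, but within the limit when set against genes of like length, at 0.02 and 0.29.

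None of the 3 enzymes of proline and ornithine breakdown among the 46 lay above a ratio of 1. Oat, ornithine aminotransferase, a mitochondrial enzyme of pericentral hepatocytes, held 77187 control counts and 61922 erythrodiol counts, for a ratio of 0.791 (counting interval 0.782 to 0.799). Its log2 ratio was -0.34 and its length-adjusted one -0.45. The proline dehydrogenase Prodh, with 13837 and 13941 counts, and the hydroxyproline dehydrogenase Prodh2, with 17209 and 17367 counts, had log2 ratios of -0.01 each, and their counting intervals held a ratio of 1. Among other genes of the pathway, Aldh4a1, which acts after Prodh, was at 0.21 and Hoga1 at 0.17, and Pycr1, which makes proline, had a log2 ratio of 0.68 but held 77 and 125 counts.

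On the scale of totals 2 of the 5 aminotransferases were past the limit and higher, or 40.0%, against 24.4% of all genes. None of them was when adjusted for length, where 6.10% of all genes were. Got1, the cytosolic aspartate aminotransferase, held 9329 and 12718 counts, with a log2 ratio of 0.43 and a length-adjusted one of 0.32, just short of the limit. Gpt2, the mitochondrial alanine aminotransferase, held 35668 and 46215 counts, with a log2 ratio of 0.35, of which 0.14 was left when adjusted for length. Gpt, the cytosolic form, held 17482 and 19006 counts, with a log2 ratio of 0.10. The 2 alanine aminotransferases had nearly equal levels in the control, 78.6 for Gpt and 80.0 for Gpt2, and were 84.3 and 102 with erythrodiol. Agxt and Agxt2, which convert glyoxylate to glycine, had log2 ratios of 0.03 and 0.14.

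Got2, the mitochondrial partner of Got1, was higher as well, at 0.36 and at 0.22 when adjusted for length. Psat1, phosphoserine aminotransferase, which acts in serine synthesis and not in breakdown, had the highest log2 ratio of the 54 other pathway genes, at 0.96 and at 0.845 when adjusted for length. It held 518 counts in the control and 1019 with erythrodiol, and its level was 1.94 and 3.76, near that of Acmsd.

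Among the enzymes of glycine and serine, 6 of 7 lay above a ratio of 1. The median log2 ratio of the 7 was 0.16, as was that of all genes. Shmt2, the mitochondrial serine hydroxymethyltransferase, held 21465 and 29393 counts, with a log2 ratio of 0.43 and a length-adjusted one of 0.31. Shmt1, the cytosolic form, held 13598 and 16779 counts, with a log2 ratio of 0.28 and a length-adjusted one of 0.17. Both forms were thus on the same side, and Shmt1 had 0.715 times the level of Shmt2 in the control and 0.644 times with erythrodiol.

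The glycine cleavage system releases carbon dioxide and ammonia from glycine in mitochondria. Its decarboxylase Gldc, aminomethyltransferase Amt and lipoyl carrier Gcsh had log2 ratios of 0.23, 0.16 and 0.04, and were within 0.13 of genes of like length. Sds, serine dehydratase, held 9868 and 10701 counts, with a log2 ratio of 0.10. Sdsl, the gene next to it on chromosome 5 with a related sequence, held 635 and 529 counts, and its log2 ratio of -0.28 had a counting interval of -0.45 to -0.12. Sds had 17.3 times the level of Sdsl in the control and 22.6 times with erythrodiol.

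The 2 enzymes of histidine and the 3 of tyrosine among the 46 were all above a ratio of 1 with group totals. The median log2 ratio of all genes on that scale was 0.16. Uroc1, urocanase, which acts after the lyase Hal, held 34046 and 43836 counts, with a log2 ratio of 0.34, and 0.14 when adjusted for length. Hal itself had a log2 ratio of 0.13 and a length-adjusted one of -0.01. Of the other histidine genes, Amdhd1 was at 0.19, and Ftcd, which ends the route, at -0.09 and at -0.25 when adjusted for length. For tyrosine, Hpd, the dioxygenase that makes homogentisate, held 123904 and 146129 counts, with a log2 ratio of 0.22 and a length-adjusted one of 0.21, and went from rank 3 to rank 2 in the order of levels, at 716 and 832. Fah, the last enzyme of the route, was at 0.29 and at 0.24 when adjusted for length, whereas Hgd between them was at 0.06 and 0.0027. Tat, which opens the route by transamination of tyrosine, was at 0.38 and 0.24. Pcbd1, which recycles the cofactor of phenylalanine hydroxylase, was higher in the length-adjusted value alone, at 0.37.

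The branched-chain enzymes lay close together. None of the 9 passed the limit on either scale, and their log2 ratios went from -0.01 to 0.32, or from -0.16 to 0.22 when adjusted for length. Dbt, the core subunit of the branched-chain ketoacid dehydrogenase, had the highest, at 0.317 just inside the limit, with 7290 and 9214 counts, and the E1 subunits Bckdha and Bckdhb were at 0.08 and 0.25. The paired subunits of the biotin carboxylases were close to each other, with log2 ratios of -0.01 and 0.12 for Pcca and Pccb of propionyl-CoA carboxylase and 0.03 and 0.13 for Mccc1 and Mccc2 of methylcrotonyl-CoA carboxylase. Ivd, isovaleryl-CoA dehydrogenase, was at 0.25, and Hibadh, which acts in valine breakdown, at 0.05.

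Of the 12 other genes of branched-chain breakdown, Bcat2, the mitochondrial branched-chain aminotransferase, which is low in hepatocytes, was at 0.42, with a length-adjusted value of 0.31. Mcee, methylmalonyl-CoA epimerase, was at -0.54, and at -0.25 when adjusted for its short length. The lysine enzymes Aass and Gcdh were at 0.11 and -0.03, and at -0.09 and -0.15 when adjusted for length.

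**Figure D4:**
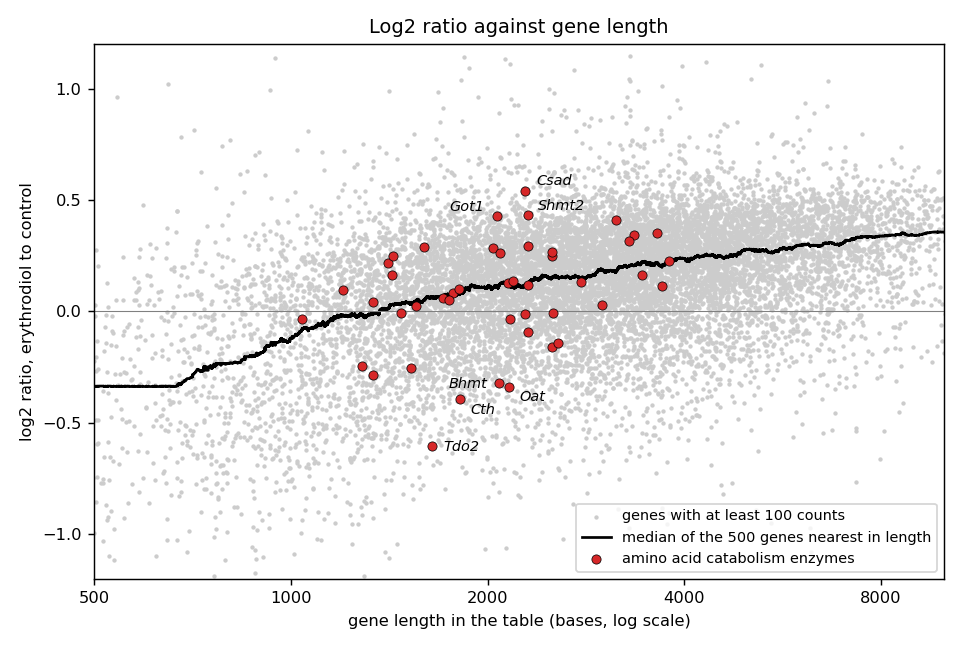
Log2 ratio of erythrodiol to control against gene length in bases (log axis) for genes with at least 100 counts (grey), the median of the 500 genes nearest in length (black line) and the 46 enzymes (red). Genes outside the axes are not drawn. The black line goes up with length, Tdo2 lies furthest below it, at -0.67, followed by Cth, Oat and Bhmt at -0.47, -0.45 and -0.44, and Csad lies above it by 0.42.

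Of the 55 other genes of these pathways on the list, 54 were in the table. Their median log2 ratio was 0.17, near the 0.16 of all genes. Past the limit on the scale of totals, 15 were higher, or 27.8% against 24.4% of all genes, and 1 was lower, or 1.85% against 8.89%. In the length-adjusted values 4 were higher, namely Psat1, Pycr1, Pcbd1 and Kyat1, or 7.41% against 6.10%, and 1 was lower, namely Adk, or 1.85% against 13.5%. Also higher on the scale of totals were Glyctk, Srr, Chdh, Dhtkd1 and Hykk, with log2 ratios from 0.32 to 0.47.

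By location, the 21 mitochondrial enzymes had a median log2 ratio of 0.11 and the 24 cytosolic ones 0.12, and the length-adjusted medians were 0.0050 and 0.04. By level, 10 of the 18 enzymes with a control level of at least 100 lay below a ratio of 1 on the scale of totals. Of the other 28, 5 did. The control level is also the divisor of the ratio, and the share of all genes below 1 at these levels was not counted. Across the 46 enzymes the rank correlation of mean level and length-adjusted log2 ratio was -0.27, and across the 9030 genes with a control level at least that of Acmsd it was 0.04. All points come from the same group sums, enzymes are not replicates, and no test was made.

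Markers of zonation, the division of labour between hepatocytes near the portal and the central vein, were set beside these values. Of the 6 periportal markers, 4 were past the limit and higher on both scales, or 66.7%, among them Pck1, at 0.65 and at 0.50 when adjusted for length. Of all genes, 24.4% were higher on the scale of totals and 6.10% when adjusted for length. Of the 8 pericentral markers, 3 were higher, or 37.5%, and 1, Rgn at -0.57, was lower, or 12.5%, on the scale of totals. When adjusted for length 1 was higher and 1 lower, or 12.5% each. The shares of all genes that were lower were 8.89% by totals and 13.5% when adjusted for length. The summed level of the periportal markers was 1955 and 2572, and that of the pericentral ones 5384 and 6165. Of the enzymes, Hal and Sds, which are known as periportal, had log2 ratios of 0.13 and 0.10, below the median of 0.16 of all genes. Their length-adjusted values were -0.01 and 0.11. Pericentral Oat was at -0.34 and at -0.45 when adjusted for length. The other enzymes were not sorted by zone. The 8 hepatocyte markers had a median log2 ratio of 0.16 and a length-adjusted one of 0.0038. The 6 of stellate cells had medians of 0.02 and -0.25, and the 5 of sinusoidal endothelium of 0.14 and -0.17, so that their side depended on the scale. When adjusted for length, all 6 Kupffer cell and all 5 bile duct markers were past the limit and lower, with medians of -0.80 and -0.63, against 13.5% of all genes. Lymphocyte markers summed to a level of 4.05 and 4.17. The 5 markers of pancreatic acini did not move together. Cela1, at 1574 and 1113 counts, and Amy2a5, at 124 and 22.5, were lower, Ctrb1, at 8 and 42, and Cpa1, at 2 and 15, were higher, and Pnlip held 11 and 10 counts, and none of the 5 of striated muscle reached 100 counts. The part of these markers and of the lower Kupffer cell and bile duct markers in the values of the enzymes was not tested.

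New coding isoforms were assembled for 16 of the 46 enzymes, or 34.8%, against 35.8% of the genes with at least 100 counts and 40.4% of the 9905 genes with at least as many counts as the lowest enzyme. Enzymes with 1 new isoform numbered 10 and those with 2 numbered 5, beside Csad. Of the 28 new isoforms, 2 of Prodh lay on a scaffold outside the chromosomes and were not compared with GENCODE. Of the other 26, 15 held a splice junction that GENCODE vM21 lacks and 11 held none. Both isoforms of Uroc1, Ido2, Amt and Agxt2 held such a junction, and the 1 of Tdo2 held none and began at -314 bases from the RefSeq start. None of the 16 deposited splicing events that the authors filtered for a difference between the groups was in the 46 enzymes.

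Promoters from RefSeq on GRCm38.p6 were at hand for 37 of the 46 genes, with 41 starts, and were searched in the 250 bases before the start for 4 motifs on both strands. AGGTCA, the half-site that several nuclear receptors bind, was in 15 of the 41, or 36.6%, against 11.7% of 13559 promoters of genes with at least 100 counts and 4607 of all 32851 promoters. CCAAT, which the factor NF-Y binds, was in 61.0%, against 35.2% and 33.8%. TATAAA was in 12.2%, against 6.99% and 12.4%, and TGACGT, the core of the cAMP response element, in 4.88%, against 9.09% and 6.47%. The promoters compared were not matched by level. The median control level was 74.8 in the 46 enzymes and 4.73 in genes with at least 100 counts. A match describes the letters of the window and not binding. No motif counted here overlapped another one in the promoters printed above.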

How the data were processed

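The members and gene lists were chosen with earlier results of these data known. Liver RNA of 7 control and 7 erythrodiol pools was sequenced on the BGISEQ-500 platform, and groups came from the labels. The authors filtered reads, assembled transcripts with HISAT, StringTie and Cufflinks, mapped reads to genes with Bowtie2 and estimated expected counts with RSEM, and versions are not given in the sources used here. The authors deposited expected counts as sums over the 7 libraries of a group, not normalized, beside a ratio, p-value and q-value of their own, which were not used. They also deposited the count of clean reads and the percent mapped to genes for each library. The sums come to 122889032 and 124686047 counts, near the 122887639 and 124690110 read pairs that the mapped shares give.

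Log2 ratios of the sums were scaled by group totals, with no pseudocount and no test, since each gene has 1 value per group. Genes of like length are the 500 nearest in length among genes with at least 100 counts. Strand use in counting is not given in the sources used here, so reads of overlapping antisense genes cannot be told apart. Counting intervals are Clopper-Pearson at 95% on rounded counts and leave out the error of dividing reads between genes. Values are given for members past a log2 ratio of 0.322 in size on either scale, the 5 of highest level and 5 paralog pairs, and of the other pathway genes for those past the same limit, of which 1 is not reported here. Remaining members have log2 ratios or ranges. Tables were made with pandas 2.3.3 and numpy 2.4.6, intervals with scipy 1.17.1 and plots with matplotlib 3.10.9 in Python 3.11.15, and TMM factors, an alternative, with edgeR 4.0.16 in R 4.3.3. Alternatives were other scalings, a pseudocount, other minimum counts and other length classes. The computation was tested on simulated data.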

Additional observations from a re-analysis of the deposited data

Results flagged for a closer look

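In control replicate 3, 64.3% of clean reads mapped to genes, and its gap to the next control library was 0.588 of the range of the 7 control libraries, above the limit of 0.568 for 7 values. This was 1 of the 4 groups of 7 values so examined, and chance alone marks about 1 in 20. The counts of this library are part of the control sum of every enzyme and could not be taken out.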

How the results depend on the processing

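With the median of genes with at least 100 counts set to 0, 1 enzyme was past the limit of 0.322 and higher and 7 were lower, and the median log2 ratio of the 46 was -0.0551, where 6.31% of all genes were higher and 16.6% lower. With TMM factors these were 1, 7 and -0.0498 (6.65% and 16.3% of all genes), and with totals that leave out the 100 genes of highest counts 2, 7 and -0.0008 (10.5% and 13.6%). The 7 lower enzymes are 15.2% of the 46. Csad was higher in each of these 3, joined by Shmt2 in the last, and Bhmt, Sdsl, Cdo1 and Haao joined Tdo2, Cth and Oat among the lower ones. By construction these 3 scalings move all enzymes by one amount, -0.16, -0.16 and -0.11, and 14, 13 and 8 of the 46 enzymes changed sign, none of them among the 9 past the limit by group totals. A pseudocount of 1 on counts per 1e6, no minimum count and a minimum of 1000 counts left 6 higher and 3 lower. Relative to genes of like length, 20 classes of length, the 200 nearest genes and genes with at least 1000 counts gave 1 higher and 4 or 5 lower, with medians of 0.0048, 0.0063 and -0.0093. No paired analysis was possible because each gene has 1 sum per group, and for the same reason no library could be left out. The counting intervals leave out the spread between mice, which these sums do not show.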

Other observations

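Genes of the urea cycle and of glutamine metabolism, which take up the nitrogen that these enzymes release, were looked at beside them. Of the 10 genes, 8 lay above a ratio of 1. The median log2 ratio of the 10 was 0.20, against 0.16 for all genes, and the length-adjusted one was 0.06. Ass1, argininosuccinate synthase, held 144895 counts in the control and 201287 with erythrodiol, with a log2 ratio of 0.45 and a length-adjusted one of 0.39. Otc, the ornithine transcarbamylase that competes with Oat for ornithine, was at -0.31 and at -0.45 when adjusted for length, near the values of Oat. Arg1, arginase, which makes ornithine, was at -0.13 and -0.17. Cps1, which starts the cycle, was at 0.36, of which 0.09 was left when adjusted for length. Each value is 1 sum per group, and no difference was tested.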
